A study of Mus musculus with 12 samples.

Results

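The genes described here are 8 transcripts by which Sertoli cells, the somatic nurse cells of the seminiferous tubule, are known: the transcription factors Sox9, Wt1 and Gata4, the receptor Fshr, the androgen-induced homeobox gene Rhox5, and the hormone genes Amh, Inha and Inhbb. They were chosen by gene symbol, and all 8 were found among the 21004 genes of the deposited expression table. All 8 also passed the filter on low values, a minimum of 1 FPKM in 3 or more libraries, which 14675 genes passed.

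Messenger RNA was sequenced from the testis of ICR mice, an outbred strain, at 8 weeks of age, with 12 libraries in 4 groups of 3. The control group carries no named agent. The busulfan group was given busulfan, a DNA-alkylating chemotherapeutic that kills proliferating germ cells. Its dose and the time before sampling are not stated in the labels. The L.J. group was given L.J. at 10 mg/kg, an agent whose name the labels do not spell out, and the group called busulfan plus L.J. was given both, with L.J. at 10 mg/kg. The series text also mentions FMT without saying what it is, so what the L.J. groups received is uncertain. Nothing in the labels says that the 3 libraries of a group come from separate animals, and the p-values then measure the spread between samples, which may be technical.

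Sertoli cells are the only somatic cells inside the tubule and carry the testis-determining programme. Gata4 and Wt1 act in the early gonad, Sox9 commits its supporting cells to the Sertoli fate, and all remain expressed in the adult cell. Follicle-stimulating hormone from the pituitary acts on Sertoli cells through Fshr and cyclic AMP, androgen induces Rhox5 in them, and the cells answer the pituitary with inhibin B, a dimer of the products of Inha and Inhbb that lowers follicle-stimulating hormone. Amh encodes anti-Müllerian hormone, which is abundant in immature Sertoli cells and falls at puberty.

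The busulfan and the busulfan plus L.J. libraries stood apart from the other 6 before any single gene was considered. Summed over 5 elongating spermatid markers (Prm1, Prm2, Tnp1, Tnp2 and Odf1), they held 26920 to 35020 FPKM, where the control libraries held 1374 to 6815 and the L.J. libraries 3590 to 17040. Summed over 10 Sertoli markers that are not among the 8 genes, they held 625.5 to 751.4 FPKM, where the control libraries held 1346 to 2629 and the L.J. libraries 1100 to 5670. Late spermatid transcripts were thus high in the libraries labelled with the germ cell toxin, and every direction is given by the labels as they stand. In whole testis, fewer cells of a type and less RNA per cell cannot be told apart, and the part of the spermatid transcripts in the values below was not tested. All 10 Sertoli markers were above 0 in all 12 libraries, while Foxl2, a marker of the ovarian counterpart of the Sertoli cell, was at most 0.07 FPKM in any of them. Cyp19a1, the aromatase gene and the other granulosa marker, which testicular cells also express, was 1.13 ± 0.21 FPKM (SD, n = 3) in control and 3.03 ± 0.108 in busulfan, and it rose, by 0.92 on the log2(FPKM + 1) scale with an adjusted p of 0.003808 by limma. Summed, these 2 markers held 0.99 to 1.34 FPKM in control, 2.93 to 3.12 in busulfan, 0.96 to 1.43 in L.J. and 3.02 to 3.15 in busulfan plus L.J., and their part in the values below was not tested. FPKM divides the fragments of a gene by its length and by the size of the library. It gives no read counts, and library depth is unknown.

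Start regions are shown for the receptor and for one inhibin subunit, because they lie far apart in base composition. Of the 8 genes, Fshr, Rhox5, Inha and Inhbb have a start region in the RefSeq table of GRCm38.p6 used here, and Sox9, Wt1, Gata4 and Amh are only named. Each run gives the 250 bases before the annotated start, 5′ to 3′ on the strand of the gene, with the E box CACGTG, a hexamer bound by basic helix-loop-helix factors, in capitals. Fshr lies on the minus strand at chr17:89200676-89200925 and Inhbb on the minus strand at chr1:119422249-119422498.
Fshr: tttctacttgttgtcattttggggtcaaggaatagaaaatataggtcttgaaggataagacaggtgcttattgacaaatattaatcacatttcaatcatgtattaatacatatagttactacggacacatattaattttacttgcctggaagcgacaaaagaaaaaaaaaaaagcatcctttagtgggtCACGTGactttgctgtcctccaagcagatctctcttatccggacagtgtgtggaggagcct
Inhbb: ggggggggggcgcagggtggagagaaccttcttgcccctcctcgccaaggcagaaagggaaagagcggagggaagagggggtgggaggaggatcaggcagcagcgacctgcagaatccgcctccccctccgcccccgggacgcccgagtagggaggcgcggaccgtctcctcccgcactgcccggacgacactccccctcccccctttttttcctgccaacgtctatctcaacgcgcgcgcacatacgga
The Fshr region was 36.8% G and C and the Inhbb region 68.0%, where the median of all 32851 start regions was 52.4%. The Fshr region holds 1 CACGTG, whose first base is at position -61 from the start, and 6.02% of all start regions hold at least 1 on either strand. None of the other motifs searched on both strands was found in the Fshr or Inhbb region: AGGTCA, the core bound by steroidogenic factor, in 14.0% of all start regions, the SOX core AACAAT in 9.42%, the GATA core AGATAA in 9.99% and the cyclic AMP response element TGACGTCA in 1.55%. Inha had 1 AGGTCA, at position -69, and Rhox5 had 1 AACAAT, at position -227 on the other strand. The Inha region, chr1:75507359-75507608 on the plus strand, lies inside the span given for the gene, 75507077 to 75510366. Its position is thus counted from a start within that span. A match describes the letters and is not a binding site.

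All 8 genes were lower in each of the 6 libraries given busulfan, with or without L.J., than in each of the other 6, which held for 35% of all genes. All 8 were highest in L.J. replicate 3, and in all 8 the lowest control was replicate 2. L.J. replicate 3 also held the highest summed Sertoli markers of all libraries, and control replicate 2 the lowest of the control libraries. The 3 transcription factors are taken first.

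Sox9 (gene 20682, chromosome 11, 112782210 to 112787757, GRCm38), the factor that commits cells to the Sertoli fate, measured 17.32, 9.38 and 15.87 FPKM in control replicates 1 to 3 and 6.54, 5.62 and 4.44 in busulfan replicates 1 to 3. It measured 9.70, 9.14 and 45.47 FPKM in L.J. replicates 1 to 3 and 4.75, 7.21 and 4.92 in busulfan plus L.J. replicates 1 to 3. The busulfan libraries lay below the control libraries without overlap, and the L.J. group had 1 library far above its other 2. Wt1 (gene 22431, chromosome 2, 105126529 to 105173614), a zinc finger factor that maintains Sertoli cells in the adult mouse, measured 54.44, 29.79 and 53.57 FPKM in control and 16.22, 15.14 and 14.93 in busulfan. Wt1 measured 32.41, 23.11 and 109.29 FPKM in L.J. and 15.21, 15.15 and 13.79 in busulfan plus L.J. Its 6 values under busulfan, with or without L.J., were the tightest of the 3 factors relative to their level. Gata4 (gene 14463, chromosome 14, 63198914 to 63271712), a zinc finger factor of gonadal somatic cells that Leydig cells also express, measured 23.06, 13.29 and 23.60 FPKM in control and 7.06, 6.82 and 5.66 in busulfan. Gata4 measured 13.73, 11.26 and 52.66 FPKM in L.J. and 7.38, 7.09 and 7.44 in busulfan plus L.J. The busulfan plus L.J. libraries lay just above the busulfan libraries and below all control libraries.

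Fshr (gene 14309, chromosome 17, 88984952 to 89200675), the receptor of follicle-stimulating hormone, measured 6.37, 3.12 and 6.53 FPKM in control and 1.33, 1.16 and 0.90 in busulfan. Fshr measured 2.92, 3.32 and 12.26 FPKM in L.J. and 1.71, 1.15 and 1.37 in busulfan plus L.J. It was a low transcript in every library, and its highest library was 13.6-fold above its lowest, the widest range of the 8 genes. Rhox5 (gene 18617, chromosome X, 37754608 to 37808878), a homeobox gene that androgen induces in Sertoli cells and that the epididymis also expresses, measured 30.17, 14.63 and 32.10 FPKM in control and 7.09, 8.51 and 8.54 in busulfan. Rhox5 measured 21.61, 13.86 and 39.13 FPKM in L.J. and 9.48, 9.02 and 9.96 in busulfan plus L.J. Its range was the narrowest of the 8 genes, 5.52-fold, and L.J. replicate 3 was 1.81-fold above the next L.J. library, where for the other 7 genes it was 2.80-fold to 4.69-fold above. Summed over 5 epididymis markers, control replicate 3 held 543 FPKM, and the other 11 libraries 24.64 to 172.4. Lcn5, a defining marker of that duct, was 0 in 11 libraries and 0.07 FPKM in busulfan plus L.J. replicate 3. In control replicate 3 it was the only 1 of the 5 markers at 0. The mean of log2(FPKM + 1) over the 5 was 3.855 there, against 1.406 to 2.501 in the other 11 libraries. The part of epididymis in the Rhox5 values was not tested.

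Amh (gene 11705, chromosome 10, 80805240 to 80807679), the hormone of immature Sertoli cells, was low in the adult testis, with 3.31, 2.75 and 3.78 FPKM in control and 0.91, 0.58 and 0.67 in busulfan. Amh measured 2.11, 2.02 and 5.91 FPKM in L.J. and 0.87, 0.61 and 1.58 in busulfan plus L.J. Sf3a2, a splicing factor gene that ends just upstream of Amh on the same strand, stood at 101.2 ± 0.499 FPKM (SD, n = 3) in control and 82.06 ± 9.42 in busulfan, so reads that run on from it cannot be told apart from Amh. Inha (gene 16322, chromosome 1, 75507077 to 75510366), the α subunit of inhibin, was the most abundant of the 8, with 167.77, 96.27 and 184.46 FPKM in control and 45.44, 29.26 and 33.07 in busulfan. Inha measured 88.44, 73.99 and 282.77 FPKM in L.J. and 42.21, 33.60 and 42.44 in busulfan plus L.J. Leydig cells express it as well. Inhbb (gene 16324, chromosome 1, 119415463 to 119422248), the βB subunit, measured 15.52, 10.52 and 16.23 FPKM in control and 5.55, 3.46 and 4.21 in busulfan. Inhbb measured 8.37, 7.75 and 32.51 FPKM in L.J. and 4.37, 3.94 and 3.49 in busulfan plus L.J. For all 3 hormone genes every library given busulfan lay below every control library.

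**Figure D1:**
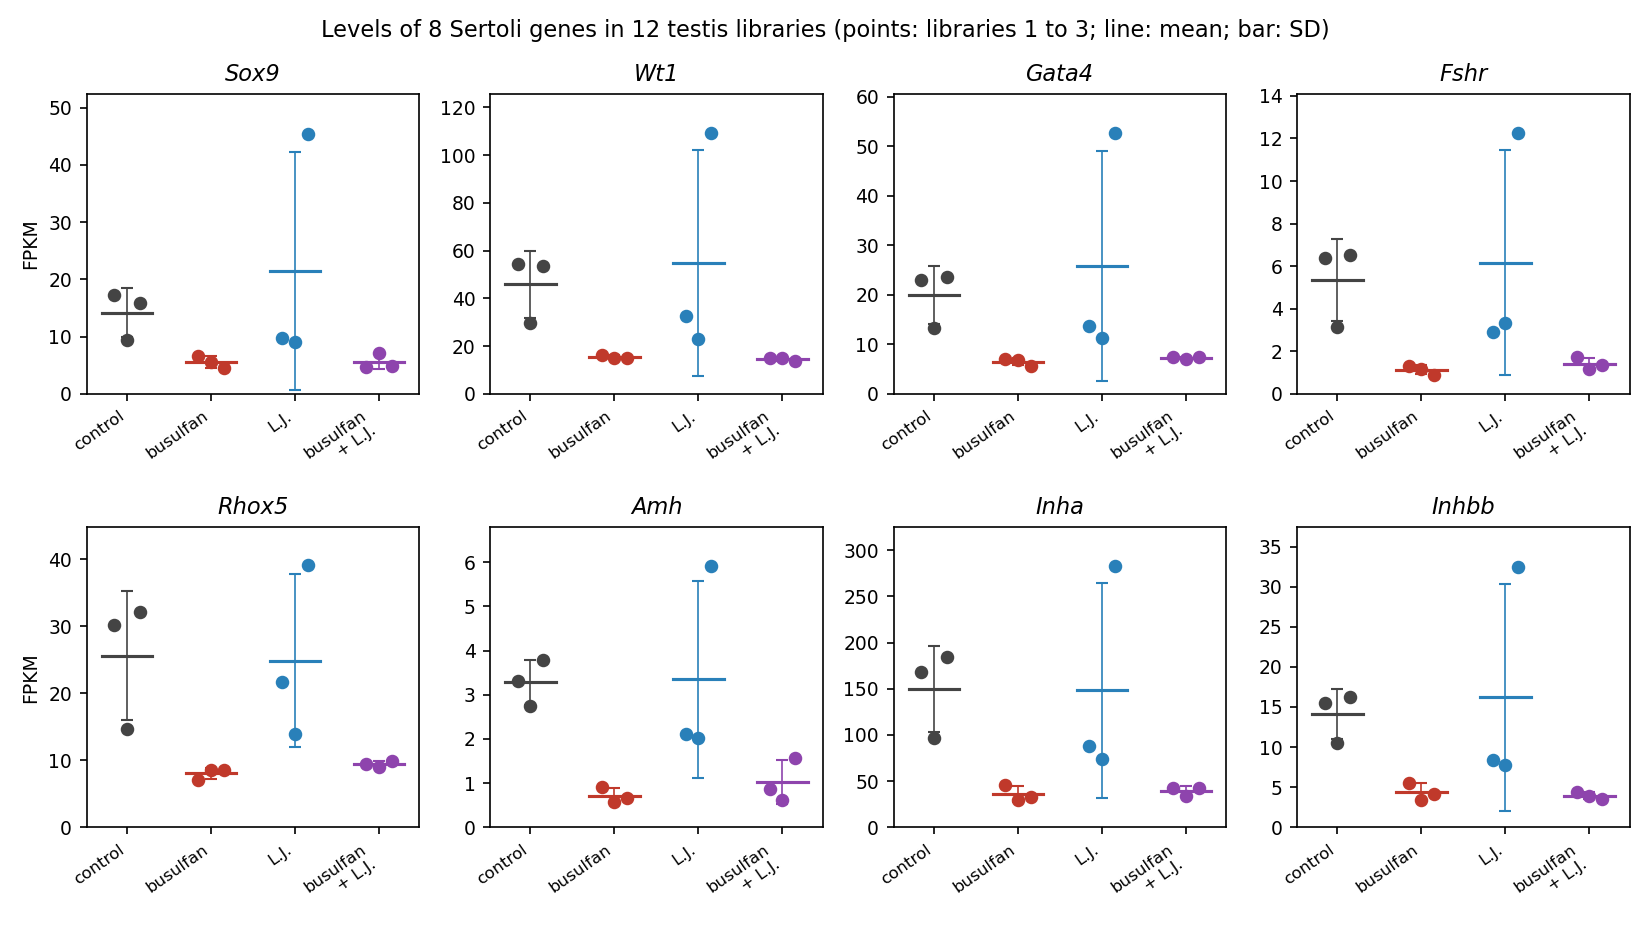
FPKM of each of the 8 genes (vertical axis, linear, from 0) in the 3 libraries of each group (points), with the group mean (line) and SD (bar). All 8 genes are lower in the 6 libraries given busulfan, with or without L.J., than in all other libraries, and L.J. replicate 3 is the highest point in each panel.

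FPKM is scaled to transcript length, so the levels of different genes can be set side by side within a library. Inha was highest and Wt1 next in 12 of 12 libraries. Rhox5 and then Gata4 followed in 10 of 12, and Sox9 lay above Inhbb in 10 of 12. Fshr and then Amh were the lowest in 11 of 12, with the order turned in busulfan plus L.J. replicate 3. Within the control group the ranges of the neighbours Wt1 and Rhox5, Rhox5 and Gata4, Gata4 and Sox9, Sox9 and Inhbb, and Fshr and Amh overlapped between libraries. Within each of the 3 control libraries, however, Wt1 lay above Rhox5, Rhox5 above Gata4, Gata4 above both Sox9 and Inhbb, and Fshr above Amh. Sox9 and Inhbb changed order among the controls, with Sox9 higher in replicate 1 only, so this pair did not differ beyond its spread there.

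What the drug changes in the testis is the question behind busulfan against control. As deposited, all 8 genes fell in the busulfan libraries, by 2.56-fold for Sox9 to 4.73-fold for Fshr in mean FPKM. Inha, the most abundant of them, went from a mean of 149.5 ± 46.9 FPKM (SD, n = 3) to 35.92 ± 8.46, a log2 change of -1.997 ± 0.43 (SE), for which limma gave an adjusted p of 0.004906. All 8 of the 8 genes passed the adjusted threshold of 0.05 on the lower side, where 51.4% of all genes tested were called lower and 63.7% were called in either direction. Their median log2 change was -1.47, and that of all genes was -0.51. The count depended on how libraries were scaled: 4 of the 8 (Fshr, Rhox5, Amh and Inha) stayed lower after quantile normalization and 5, with Inhbb added, after scaling to the median gene, where 18.8% and 13.5% of all genes were called lower. Of all calls in the comparison, 19.4% were higher as deposited, 47% after quantile normalization, 61% after scaling to the median gene and 98.8% after the scaling to Sertoli genes described below.

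The changes of the transcription factors were -1.19 ± 0.48 for Sox9 with an adjusted p of 0.04854, -1.47 ± 0.44 for Wt1 with 0.01506, and -1.44 ± 0.44 for Gata4 with 0.01599, all log2(FPKM + 1) ± SE by limma. Fshr changed by -1.53 ± 0.40 with an adjusted p of 0.009045 and Rhox5 by -1.49 ± 0.34 with 0.005898. Amh changed by -1.31 ± 0.30 with an adjusted p of 0.005693 and Inhbb by -1.48 ± 0.42 with 0.01193. On this scale the change of a gene near 1 FPKM is smaller than its ratio, and Fshr and Amh, with ratios of 4.73 and 4.56, are the genes it touches most. The busulfan and control libraries of all 8 genes did not overlap, which held for 60.7% of all genes in the lower direction. The smallest p that an exact two-sided permutation test of 3 libraries against 3 can give is 0.1, so no single gene can pass 0.05 by that test.

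Sox9 was the least certain of the 8. Its adjusted p by limma was above 0.05 in 15 of 23 alternative analyses, and reached 0.1335 among those that left out 1 library. Without control replicate 1 or without control replicate 3 the count fell from 8 to 5, and Sox9, Wt1 and Gata4 lost their calls, at adjusted p of 0.05142 for Wt1 and 0.05218 for Gata4 without replicate 1 and 0.05509 and 0.05803 without replicate 3. Gata4 also lost its call without busulfan replicate 3, at 0.05066. Without L.J. replicates 2 and 3, the libraries at the ends of their group, the count stayed at 8.

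Leydig cells, the androgen-producing cells between the tubules, moved in the same direction, since 6 of 6 Leydig markers fell and their summed level was 3555 to 6086 FPKM in control, 1048 to 1427 in busulfan, 1107 to 4397 in L.J. and 1293 to 1589 in busulfan plus L.J. No Leydig marker was at 0 in any library. Over all genes, 51.4% were called lower and the median log2 change was -0.51. Other cell types moved too. All 5 peritubular myoid markers fell, with a median log2 change of -1.59, and their summed level was 68.41 to 215.4 FPKM in control, 30.18 to 35.83 in busulfan, 49.3 to 137 in L.J. and 33.57 to 39.18 in busulfan plus L.J. All 5 macrophage markers fell, with a median of -1.49, and held 48.97 to 91.29 FPKM in control, 22.45 to 25.1 in busulfan, 45.36 to 112.2 in L.J. and 25.93 to 31.52 in busulfan plus L.J. Of 5 markers each, 4 of spermatogonia, 5 of spermatocytes and 2 of endothelium fell, with medians of -0.88, -0.61 and -0.54. The spermatocyte and endothelial medians lay near that of all genes. After scaling to the median gene, 1 spermatogonial, 0 spermatocyte and 0 endothelial markers were called lower. Their medians were then -0.395, 0.012 and -0.194. In busulfan the spermatogonial markers summed to 28.37 to 34.06 FPKM against 54.2 to 79.99 in control, the spermatocyte markers to 399.1 to 457.8 against 575.6 to 685 and the endothelial markers to 5.63 to 5.99 against 7.5 to 13.1. Round spermatid markers went the other way: 4 of 5 rose and 0 fell, with a median of 1.40, where 12.4% of all genes were called higher. They summed to 728.6 to 870.3 FPKM in busulfan against 307.8 to 467 in control. None of these markers was at 0 in any library. The part of these cell types in the values of the 8 genes was not tested.

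Against control, the group given both agents showed the same 8 genes lower. All 8 of 8 passed the threshold, where 53.5% of all genes were called lower and 66.5% in either direction. All 8 lay below control without overlap, as did 63.4% of all genes. Inha changed by -1.85 ± 0.43 with an adjusted p of 0.004629 by limma, Inhbb by -1.59 ± 0.42 with 0.007647 and Wt1 by -1.53 ± 0.44 with 0.01131. Fshr changed by -1.35 ± 0.40 with an adjusted p of 0.01294, Gata4 by -1.30 ± 0.44 with 0.02333, Rhox5 by -1.27 ± 0.34 with 0.008393, Sox9 by -1.17 ± 0.48 with 0.04893 and Amh by -1.11 ± 0.30 with 0.008451. In mean FPKM the ratios ran from 2.52 for Sox9 to 3.79 for Fshr and Inha. After quantile normalization 2 of the 8 (Amh and Inha) stayed lower, and after scaling to the median gene 4 (Fshr, Amh, Inha and Inhbb), where 23% and 17.1% of all genes were called lower. Of all calls, 44% and 57.9% were then higher, where 19.5% were as deposited. This comparison and the former share their control libraries, so they are not independent. Without control replicate 3 the count was 5, with Sox9, Gata4 and Fshr lost, the last at an adjusted p of 0.0502, and without control replicate 1 or any single library of the group given both agents it was 6, with Sox9 and Gata4 lost.

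Whether L.J. changes the testis after busulfan, the question in the series title, was asked by setting the group given both agents against busulfan alone. None of the 8 genes passed the threshold, and neither did any other gene, so 0% of all genes were called. At an unadjusted p under 0.05 the count was 109 genes, 0.743% of those tested, and 0 of the 8, and limma with the robust option and no trend also called 0 genes. The log2 changes ran from -0.12 ± 0.42 (SE) for Inhbb to 0.22 ± 0.34 for Rhox5, and their median was 0.15. Rhox5 and Gata4 were the only members of the 8 whose libraries did not overlap, both higher with L.J., where 3.39% of all genes lay apart in that direction. For Rhox5 the means were 9.487 ± 0.470 FPKM with both agents and 8.047 ± 0.829 with busulfan alone, and for Gata4 7.303 ± 0.187 and 6.513 ± 0.749. The 95% interval of the log2 change was -0.53 to 0.96 for Rhox5, -0.82 to 1.11 for Gata4 and -0.70 to 1.06 for Fshr, and each of these intervals reached across 0.

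L.J. against control asks what the agent does alone, and it was limited by the spread of the L.J. libraries. No gene passed the threshold, again 0% of all genes, with 715 genes, 4.87%, and 0 of the 8 at an unadjusted p under 0.05 and 0 genes by limma with the robust option and no trend. The log2 changes ran from -0.23 ± 0.43 (SE) for Inha to 0.22 ± 0.48 for Sox9. The direction of all 8 depended on which library was left out, from -0.50 to 0.60 for Sox9, from -0.68 to 0.42 for Wt1 and from -0.82 to 0.14 for Inha, and L.J. replicate 3 gave the lowest of these values when it was left out. The interaction, which asks whether the L.J. difference was another one with busulfan than without it, called 0% of all genes and 0 of the 8 as well, with 182 genes, 1.24%, at an unadjusted p under 0.05 and 0 genes by limma with the robust option and no trend. Its values ran from -0.20 ± 0.68 for Sox9 to 0.37 ± 0.60 for Inha.

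**Figure D2:**
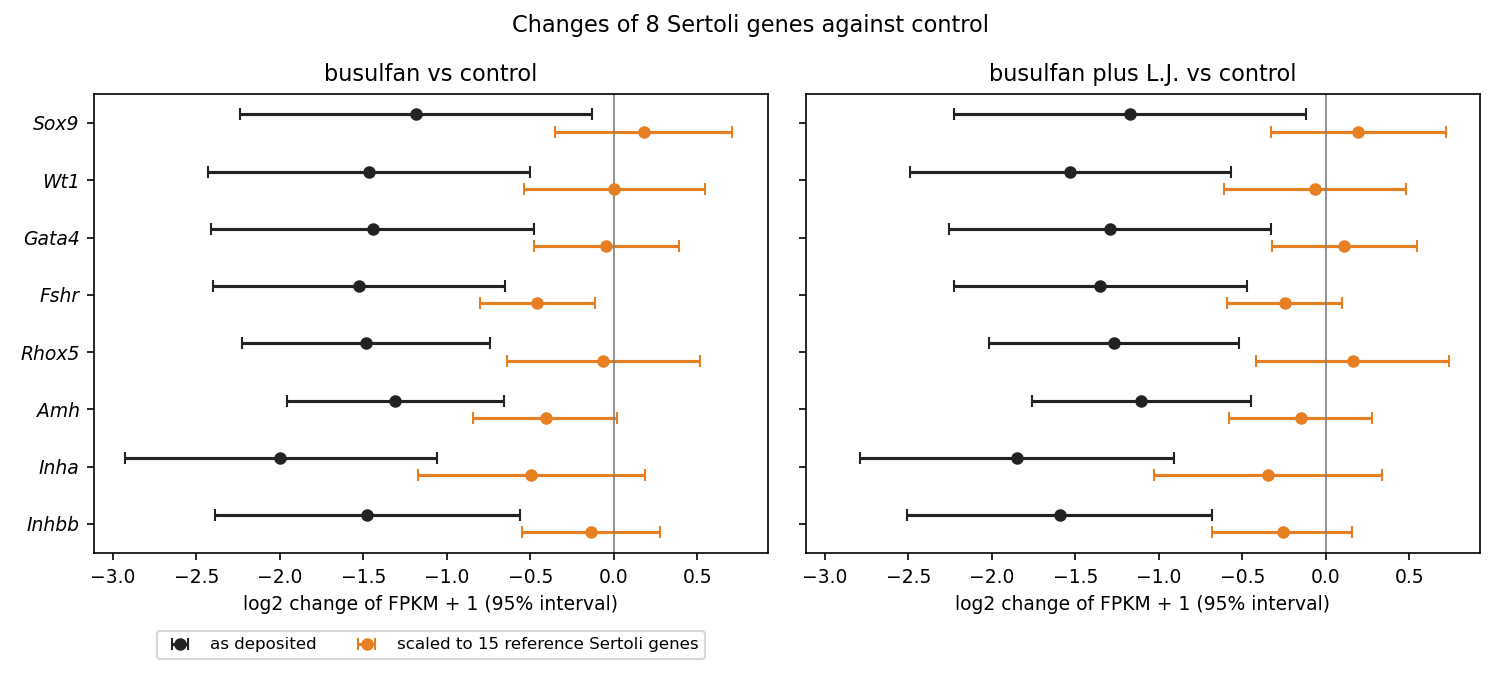
Log2 change of each gene with its 95% interval (horizontal axis) for busulfan against control and busulfan plus L.J. against control, as deposited and after each library was scaled to 15 reference Sertoli genes. As deposited, the 8 genes lie below 0 against control in both groups given busulfan, and after scaling only the interval of Fshr for busulfan against control, -0.80 to -0.11, does not reach across 0.

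Because the 6 libraries low in the 8 genes were also low in other Sertoli transcripts, each library was scaled to 15 reference Sertoli genes that are not among the 8: Clu, Trf, Ctsl, Cst9, Cst12, Aard, Cldn11, Dhh, Sox8, Rhox8, Mro, Tsx, Defb19, Gata1 and Etv5. All 15 fell with busulfan as deposited, with a median log2 change of -1.63. The scaled values state the level of a gene relative to these Sertoli genes and say nothing of the number of Sertoli cells. The factor of a library was derived from log2(FPKM + 1) but divides FPKM, and the reference genes did not become fully level. After scaling, their median log2 change against control was still -0.166 in the busulfan group. In the group given both agents it was -0.126. The scaled changes of the 8 genes were not corrected for this remainder. On this scale the median of all genes moved to 0.76 for busulfan against control, and 29.8% of all genes were called higher and 0.348% lower.

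Relative to the reference genes, Wt1 was nearly level in all 12 libraries, from 22.7 to 28 scaled FPKM, and its coefficient of variation over the 12 libraries was 6.18%, against 86.1% as deposited. Gata4 ranged from 10.1 to 13.2 scaled FPKM, with a coefficient of variation of 7.69% against 89.7%. Inhbb ranged from 5.75 to 9.07 scaled FPKM. Sox9 was 8.11 ± 0.61 scaled FPKM (SD, n = 3) in control and 9.35 ± 1.26 in busulfan, with 1 high library of 13.3 in busulfan plus L.J. Of the factors and Inhbb, none passed the threshold after scaling, and the 95% intervals of the scaled log2 change were -0.54 to 0.55 for Wt1, -0.48 to 0.39 for Gata4, -0.35 to 0.71 for Sox9 and -0.55 to 0.28 for Inhbb. The changes of Sox9 and Wt1 turned to 0.18 and 0.004 on this scale.

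In scaled FPKM, Fshr, Inha and Amh were lower in the busulfan libraries than in control. For Fshr and Amh, which are low transcripts, this depended on where the pseudocount entered, and for Fshr also on its size. With the library shift subtracted from log2(FPKM + 1) in place of dividing FPKM, Fshr was -0.039 ± 0.037 (SD, n = 3) in control and -0.039 ± 0.107 in busulfan, and Amh -0.135 ± 0.316 and 0.079 ± 0.028. Inha, which is abundant, was 0.258 ± 0.033 and -0.212 ± 0.185. With a pseudocount of 0.1 in the same subtraction, Fshr was 0.253, 0.026 and 0.242 in control and -0.239, -0.198 and -0.506 in busulfan. Scaled Fshr was 3.21, 2.69 and 3.09 in control and 2.03, 2.10 and 1.60 in busulfan. It was 2.41, 3.51 and 3.08 in L.J. and 2.77, 2.12 and 2.26 in busulfan plus L.J. Busulfan lay below control without overlap. The group given both agents overlapped control, and its lowest library, at 2.12, was close to the highest busulfan library, at 2.10. After scaling, 0% of all genes were called in busulfan plus L.J. against busulfan. For busulfan against control the scaled log2 change of Fshr was -0.46 ± 0.16 (SE), at an adjusted p of 0.0466 by limma. It was the only one of the 8 past the threshold, where 0.348% of all genes were called lower and 30.2% in either direction. That call was lost without control replicate 1 (0.1508) or 3 (0.149), without busulfan replicate 1 (0.08327), 2 (0.08392) or 3 (0.1624), and without busulfan plus L.J. replicate 1 (0.06119), 2 (0.06186) or 3 (0.06549).

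Scaled Inha was 84.6, 83.0 and 87.2 in control and 69.2, 53.0 and 58.9 in busulfan. It was 73.1, 78.3 and 70.9 in L.J. and 68.3, 62.0 and 69.9 in busulfan plus L.J. All 9 libraries given an agent lay below all 3 controls, though the scaled change with busulfan, -0.49 ± 0.31 (SE) at an adjusted p of 0.2086 by limma, did not pass the threshold. Without L.J. replicate 3 it did, at an adjusted p of 0.03807 by limma. That library is in neither group compared and enters only the shared estimate of the spread. The change stayed at -0.494, and its SE went from 0.312 to 0.192. Scaled Amh was 1.67, 2.37 and 1.79 in control and 1.39, 1.05 and 1.19 in busulfan, a scaled change of -0.41 ± 0.20 with an adjusted p of 0.1164. It was 1.41, 1.13 and 2.60 in busulfan plus L.J., so 1 library of that group lay above every control.

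Scaled Rhox5 was 15.2, 12.6 and 15.2 in control and 10.8, 15.4 and 15.2 in busulfan. It was 17.9, 14.7 and 9.82 in L.J. and 15.3, 16.6 and 16.4 in busulfan plus L.J. Its highest and its lowest value over the 12 libraries were both in the L.J. group. After scaling, 3 of the 8 genes (Fshr, Amh and Inha) lay apart between busulfan and control, all lower, where 2.47% of all genes lay apart in that direction. Between busulfan plus L.J. and control 4 of the 8 lay apart, Inha and Inhbb lower and Gata4 and Rhox5 higher, where 3.64% of all genes lay apart on the lower and 60.2% on the higher side. Between L.J. and control 1 of the 8, Inha, lay apart, on the lower side, where 3.65% of all genes did. Against control the group given both agents had 0 of the 8 called after scaling, where 29.7% of all genes were, 29.1% higher and 0.532% lower.

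**Figure D3:**
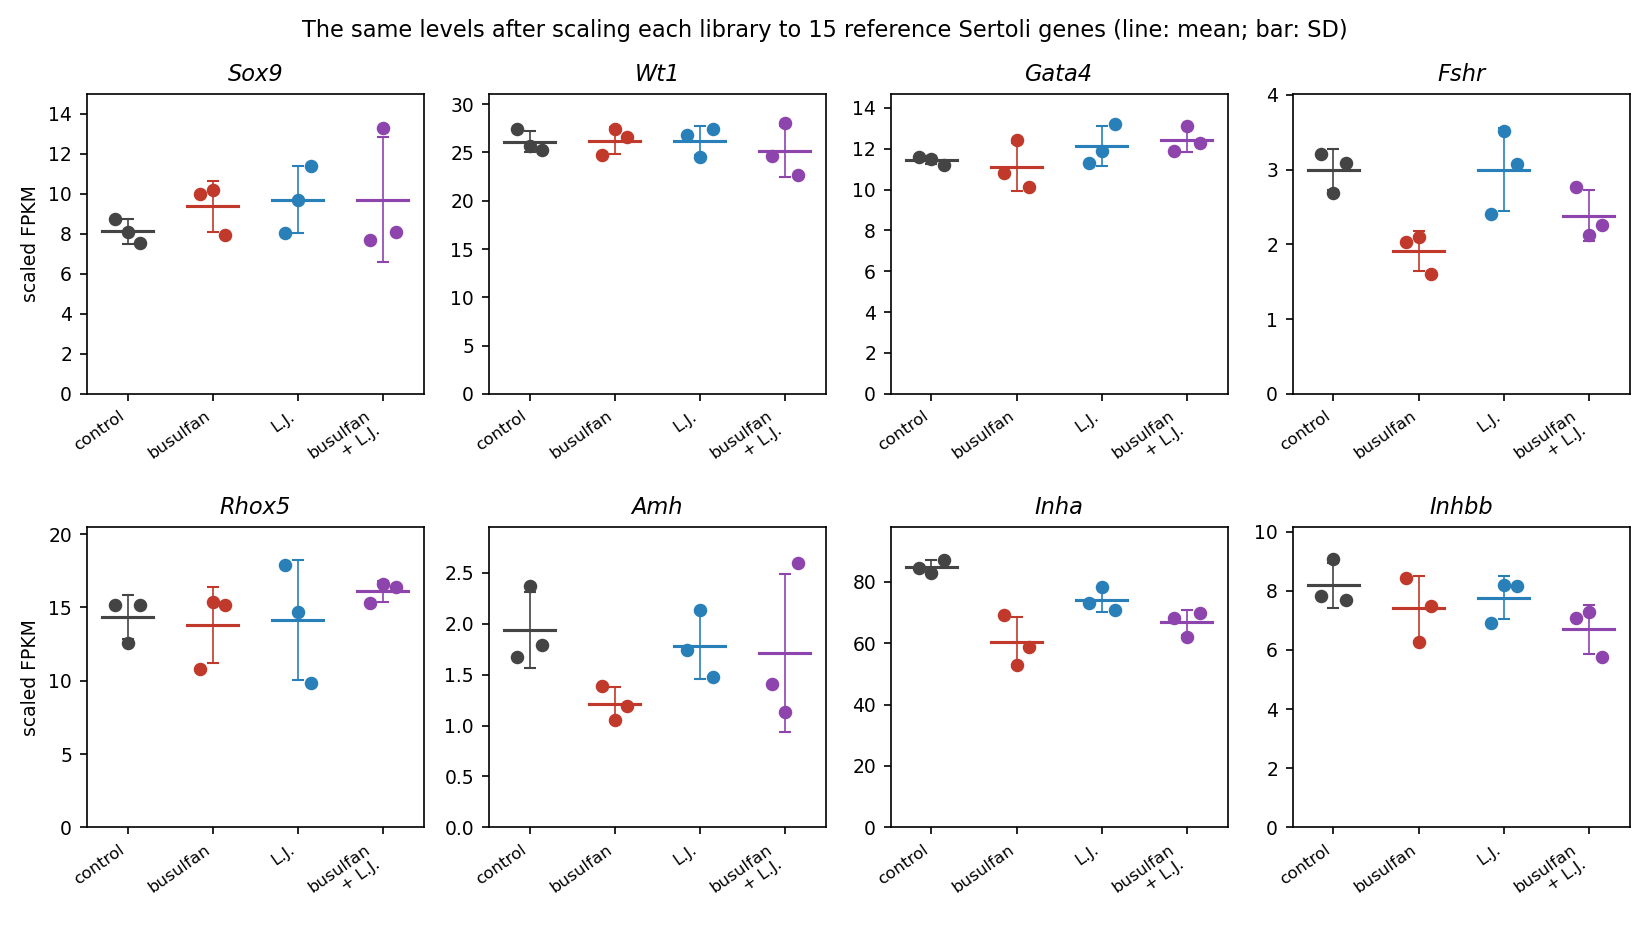
FPKM of the 8 genes after each library was scaled to 15 reference Sertoli genes (vertical axis, linear, from 0), with the 3 libraries of each group (points), the mean (line) and the SD (bar). Wt1 stays between 22.7 and 28 in all 12 libraries, while Fshr in busulfan, at 1.60 to 2.10, lies below control at 2.69 to 3.21.

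Ratios of FPKM between genes of the same library do not change when a library is multiplied by a factor, as in the scalings to the median gene and to the reference genes, but quantile normalization can change them. The ratio of Inha to Inhbb, the subunits of inhibin B, was 10.8, 9.15 and 11.4 in control and 8.19, 8.46 and 7.86 in busulfan. It was 10.6, 9.55 and 8.70 in L.J. and 9.66, 8.53 and 12.2 in busulfan plus L.J. Busulfan lay below control without overlap, and the group given both agents reached beyond both. Inhba, which encodes the other β subunit, was at most 0.97 FPKM in any library and missed the filter. The ratio of Wt1 to Gata4 stayed between 1.85 and 2.64 in all 12 libraries, and that of Wt1 to Fshr ran from 6.96 to 16.6, with means of 8.77 in control and 13.9 in busulfan.

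Profiles over the 12 libraries were compared by the root mean square difference of log2(FPKM + 1), each gene centred on its own mean. Among the 8, Gata4 and Wt1 were most alike, at 0.1197, followed by Fshr and Gata4 at 0.1317 and Wt1 and Inhbb at 0.1464. Inha and Amh were farthest apart, at 0.4048. Of all genes tested, 61 lay nearer to Wt1 than Gata4 did, and 39 nearer to Gata4 than Wt1 did. For the farthest pair, 5203 lay nearer to Amh than Inha did, and 1126 nearer to Inha than Amh did. The median over all genes lay between 0.5115 for Amh and 0.8370 for Inha. Over these 12 libraries the genes nearest to each of the 8 were Map1b at 0.1130 and Lrrc8d at 0.1131 for Sox9, and Ywhag at 0.07305 and Pard6b at 0.07781 for Wt1. They were Adam23 at 0.07173 and Zc3h7b at 0.07208 for Gata4, Ubtf at 0.09313 and D10Wsu102e at 0.1198 for Fshr, and Rcn1 at 0.1152 and Tmem176b at 0.1356 for Rhox5. They were Spr at 0.1216 and Noc2l at 0.1358 for Amh, Trim47 at 0.1377 and Ldhb at 0.1396 for Inha, and Nab1 at 0.08523 and Mmp14 at 0.09017 for Inhbb. All these profiles come from the same 12 libraries, so likeness here is a description.

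The wider pathways around the 8 genes were read by counts, for busulfan against control as deposited, where 51.4% of all genes were called lower and 12.4% higher. A share near these is not a result about a list. Some of these genes (Sox8, Gata1, Etv5 and Rhox8) are also among the reference Sertoli genes. Of 20 other transcription factors of the gonad and Sertoli cell that could be tested, 14 fell and 1 rose, with a median log2 change of -1.02. The largest falls were those of Nr5a1, which drives steroid-producing and Sertoli genes, at -1.68, Gata1 at -1.52, Tcf21 at -1.48 and Sox8, a close relative of Sox9, at -1.43. Lhx2, a homeobox factor, rose by 1.05, from 2.740 ± 0.598 FPKM (SD, n = 3) in control to 6.700 ± 0.333 in busulfan. Sox10 stood at 0.10 and did not pass the threshold. Of 5 ovarian pathway factors that could be tested, 3 fell (Ctnnb1, Esr1 and Rspo1, at -1.34, -0.94 and -0.76) and 0 rose, and Foxl2 was at or near 0.

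Among 13 hormone receptors other than Fshr, 10 fell and 0 rose, with a median of -1.07. They were led by Lhcgr, the luteinizing hormone receptor of Leydig cells, at -1.78, Prlr, the prolactin receptor, at -1.60, Igf1r at -1.39 and the glucocorticoid receptor Nr3c1 at -1.18. Of 19 genes of signalling by follicle-stimulating hormone and cyclic AMP, 13 fell and 2 rose. Gnas, the G protein subunit that couples receptors such as Fshr to adenylyl cyclase, changed by -1.74 and Rgs2 by -1.69, while Prkar2a, a regulatory subunit of protein kinase A, rose by 2.20 and the phosphodiesterase Pde4a by 0.99. Crem, a cyclic AMP-responsive factor of spermatids, stood at 0.46 and did not pass the threshold.

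Of 11 genes that androgen regulates in Sertoli cells, 8 fell and 1 rose. Drd4, Ptgds and Eppin changed by -1.92, -1.89 and -1.77, Cldn13 rose by 1.61 and Cldn3 stood at 0.19 without passing. Of 20 genes of the inhibin, activin and anti-Müllerian hormone pathway, 14 fell and 0 rose, with the convertase Furin at -1.79, the receptor of anti-Müllerian hormone Amhr2 at -1.64, the type I receptor Acvr1 at -1.57 and the signal transducer Smad3 at -1.50. Tgfbr3l and Smad6 stood at 0.21 and 0.41 and did not pass. Of 5 other Rhox genes that could be tested, Rhox8 at -1.06 and Rhox2a at -0.77 fell and Rhox11 rose by 1.04. After quantile normalization the median of the Rhox genes turned to 0.03. After scaling to the reference Sertoli genes the medians of all 7 lists turned from below 0 to between 0.006 and 0.49. All 7 lay below the median of all genes, which this scaling moved to 0.76. Of the list members, Drd4, at -0.73 ± 0.18 with an adjusted p of 0.0108 by limma, and Acvr1 were then still called lower. Lhx2, Sox10, Prkar2a, Pde4a, Crem, Cldn3, Cldn13, Tgfbr3l, Smad6, Rhox11, Insr, Arrb1 and Defb45 were called higher, where 29.8% of all genes were. No gene of these lists was called in busulfan plus L.J. against busulfan.

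**Figure D4:**
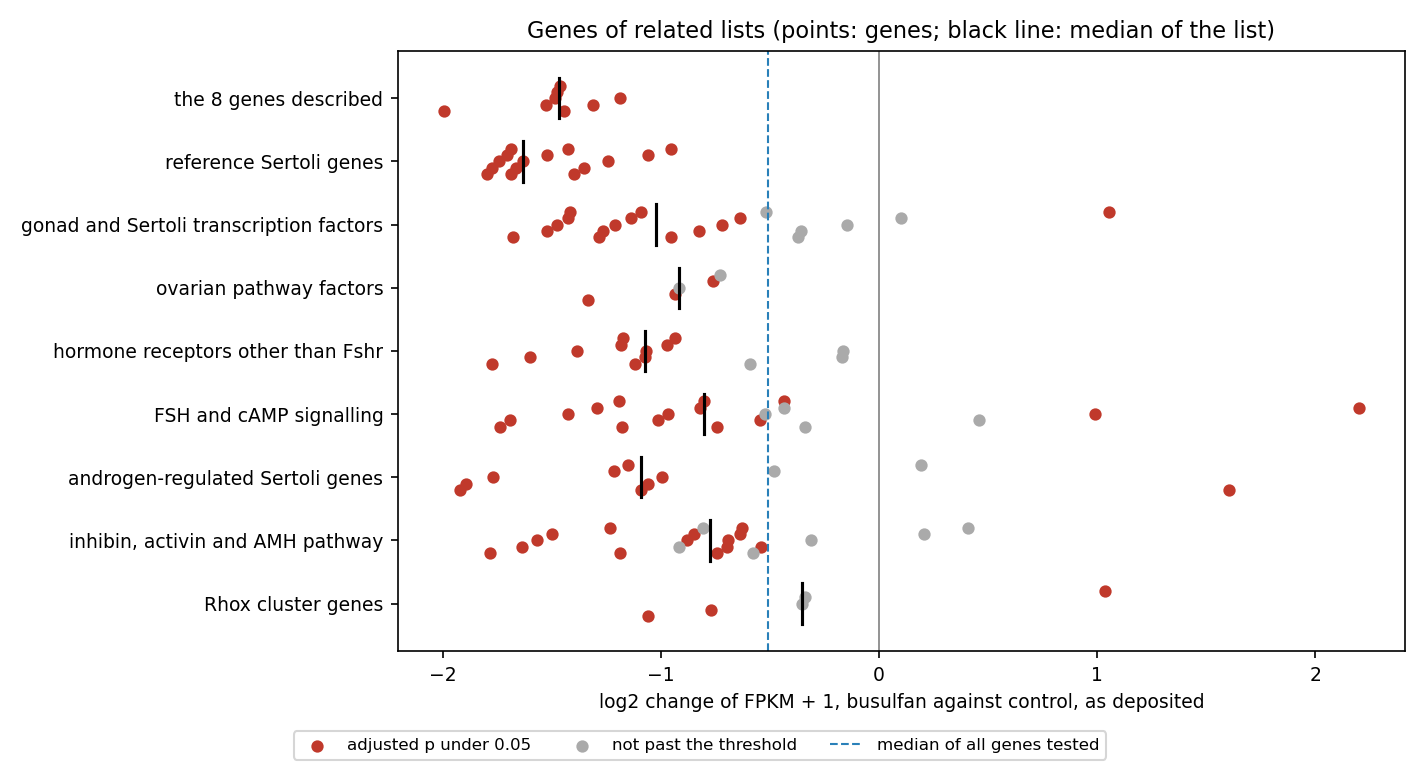
Log2 change of every tested gene of each list for busulfan against control as deposited (points, horizontal axis), coloured by whether its adjusted p was under 0.05, with the list's median (black line) and the median of all genes (dashed line). The medians of the lists run from -1.63 for the reference Sertoli genes to -0.36 for the Rhox genes, beside -0.51 for all genes.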

How the data were processed

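RNA sequencing of 12 mouse testis libraries was deposited by the authors as FPKM, per gene and library, with 2 decimals. Alignment was with Bowtie 0.12.2 to mm10, per the submitters' processing notes. The sources used here do not give the quantifier, annotation, filters or strand setting. Depth is unknown without read counts, and the number of libraries limits the precision.

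Of the 21004 genes, 26 had symbols turned into dates, which were restored by gene ID from RefSeq GRCm38.p6, where 20841 IDs were found. Genes with at least 1 FPKM in at least 3 libraries were kept (14675 kept, 6329 removed) and values were transformed as log2(FPKM + 1). All 12 libraries entered 1 limma 3.58.1 model (R 4.3.3, trend on, robust off, 8 residual and 3.4 prior degrees of freedom). P-values were adjusted by Benjamini-Hochberg over all genes tested, with a threshold of 0.05. The procedure was tested on simulated data. Plots used matplotlib 3.10.9 under Python 3.11.15.

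For the scaled values, each library was divided by 2 to the power of the median, over 15 reference Sertoli genes, of each gene's deviation of log2(FPKM + 1) from its own mean over the libraries. The genes named were the 8 genes, the 2 genes nearest to each in profile (predicted genes passed over), and of each list up to 4 called genes with the largest change plus those that ran against the list's median. Drd4, Acvr1 and other genes named for their scaled calls, and Leydig and epididymis markers, were chosen after their values were seen, as was Sf3a2. The genes, lists and tests were chosen with earlier results of these data known. Alternatives left out each library in turn, fitted only the groups compared or added a replicate block, used pseudocounts of 0.1 or 5, dropped the filter or raised it to 5 FPKM, normalized by quantiles, by the median gene or by the reference genes, and ran limma robustly without trend. Added after the data were seen were the fits on scaled values with other settings.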

Additional observations from a re-analysis of the deposited data

How the results depend on the processing

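The count of 8 lower genes in busulfan against control became 4 after quantile normalization, 5 after scaling to the median gene and 1 after scaling to the reference Sertoli genes, and ran from 5 to 8 over the analyses without 1 library. In busulfan plus L.J. against control the 8 became 2, 4 and 0 under the same scalings and ran from 5 to 8 without 1 library. Each scaling moves the median of all genes, by its construction. The deviations of same-numbered libraries correlated at -0.117 to -0.009 for busulfan and control, -0.084 to -0.017 for busulfan plus L.J. and control, 0.091 to 0.247 for busulfan plus L.J. and busulfan, and -0.175 to 0.759 for L.J. and control. In none of these 4 comparisons was every pair over 0.1, so the numbers were not taken to pair the samples, although 9 of 12 libraries correlated best with a library of their own number. With the replicate block 7 of the 8 genes were called lower in either comparison with control, Sox9 being lost at adjusted p of 0.05071 and 0.05116 by limma, and 0 in the other 3 comparisons. The 1 call after scaling to the reference genes became 0 with a pseudocount of 0.1 and 0 with the replicate block, and ran from 0 to 2 without 1 library.

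Scaling to the reference Sertoli genes turned the sign of Sox9 (0.179) and Wt1 (0.004) in busulfan against control and of Sox9 (0.196), Gata4 (0.112) and Rhox5 (0.164) in busulfan plus L.J. against control. In L.J. against control, Wt1 turned to 0.068 after quantile normalization, 0.119 after scaling to the median gene and 0.003 after scaling to the reference genes. In the same comparison quantile normalization and scaling to the median gene gave 0.15 and 0.103 for Fshr, 0.028 and 0.053 for Rhox5, 0.049 and 0.015 for Amh, and 0.115 and 0.047 for Inhbb, and a pseudocount of 5 gave 0.032 for Fshr. Without L.J. replicates 2 and 3, Sox9 was -0.463 and Gata4 -0.468 there, and the interaction was 0.477 for Sox9, 0.376 for Wt1 and 0.547 for Inhbb. The interaction of Gata4 was -0.08 after quantile normalization and -0.004 after scaling to the median gene. The cause was not tested, and none of these values passed the threshold.

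Without 1 library, changes in L.J. against control ran from -0.502 to 0.596 for Sox9, -0.676 to 0.421 for Wt1, -0.6 to 0.465 for Gata4, -0.571 to 0.308 for Fshr, -0.463 to 0.254 for Rhox5, -0.475 to 0.122 for Amh, -0.824 to 0.136 for Inha and -0.714 to 0.254 for Inhbb. The interaction ran from -0.583 to 0.516 for Sox9, -0.486 to 0.611 for Wt1, -0.316 to 0.749 for Gata4, -0.131 to 0.748 for Fshr, -0.037 to 0.679 for Rhox5 and -0.372 to 0.596 for Inhbb. Busulfan plus L.J. against busulfan ran from -0.15 to 0.124 for Sox9 and -0.248 to 0.03 for Inhbb.

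The log2 ratio of Inha to Inhbb, -0.349 for busulfan minus control and -0.056 for busulfan plus L.J. minus control, became -0.872 and -0.671 with a pseudocount of 5, which by its construction weighs more on Inhbb, the lower of the pair. Depth is unknown, so what counting error adds for Fshr and Amh, near 1 FPKM under busulfan, cannot be given.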

Other observations

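L.J. replicate 3 held the highest deposited level of all 8 genes, yet relative to the reference Sertoli genes it held the lowest level of Rhox5, the androgen-induced gene, in any of the 12 libraries. Scaled Rhox5 was 9.82 there, against 17.9 and 14.7 in L.J. replicates 1 and 2. Scaled the same way, the Leydig cell genes Cyp17a1 and Cyp11a1, enzymes of androgen synthesis, were 66.9 and 17.1 in L.J. replicate 3, 132 and 39.5 in replicate 2, and 420 and 121 in replicate 1. Star, which brings cholesterol into mitochondria, was 10.7, 33.4 and 53.5 in L.J. replicates 3, 2 and 1, and Lhcgr, the luteinizing hormone receptor, was 2.02, 4.78 and 13.8. Hsd3b1, another Leydig enzyme, did not share that order, with 123, 143 and 84.4. Neither did Insl3, the remaining Leydig marker, with 884, 819 and 1740 in replicates 3, 2 and 1. The scaling lowers L.J. replicate 3 the most, by a log2 shift of 1.995, against -0.082 and 0.275 in replicates 2 and 1. As deposited, the 6 Leydig markers summed to 4397, 1107 and 2946 FPKM in L.J. replicates 3, 2 and 1. Their mean log2(FPKM + 1) was 7.253, 6.068 and 7.352, so replicate 2 and not replicate 3 was lowest there. Of the 11 other androgen-regulated Sertoli genes tested, 4 are given here, scaled the same way. How many of the 11 were lowest in L.J. replicate 3 cannot be read from them. Tsc22d3, with 2.82, 4.49 and 4.45 in L.J. replicates 3, 2 and 1, and Rhox8, with 45.8, 57.9 and 47.3, were lowest in replicate 3. For Rhox8 the gap to replicate 1 was small. Eppin, at 38.5, 36.3 and 38.4, and Drd4, at 3.32, 2.83 and 4.17, were not. Rhox8 is itself 1 of the 15 reference genes, and in control replicate 3 it was lower still, at 33.7. These genes were chosen after their values were seen, these are 3 libraries of 1 group, and no relation was tested.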
